A study of Homo sapiens with 14 samples.

Results

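R1 is 1 of 5 sublines of OVCAR-3, an established human ovarian carcinoma cell line, that were derived independently and resist PHA-533533, an inhibitor of the cell cycle kinase CDK2. It was measured on 2 of the 14 arrays of the series and is compared here with the 8 arrays of the sublines R3, R5, R6 and R7, the arrays being chosen by the subline named in their titles. Each subline was arrayed once at passage 5 while growing in 4 µM PHA-533533 (called selected) and once at passage 10 or later in medium with 0 µM (called stable), so inhibitor and passage changed together. The other 4 arrays hold parental OVCAR-3 grown in medium alone and serve only as a reference level for both sides of a difference. All cells were kept in the same serum-containing medium with penicillin and streptomycin, and pellets of subconfluent cultures were frozen before RNA was extracted. The labels do not say whether a subline is a clone or a pool, and both R1 arrays come from that single subline, so the p-values below measure the spread between arrays and not between independent lines like R1. On the R1 arrays the epithelial and Müllerian genes PAX8, EPCAM, KRT7, KRT8, KRT18 and KRT19 lay between percentiles 97.1 and 99.8 of all genes, MUC16, the gene of CA-125, between 10.20 and 11.13 in log2 signal, and WT1 between percentiles 69.0 and 78.6.

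CDK2 is activated by cyclin E, the product of CCNE1 and CCNE2, and drives entry into DNA synthesis. OVCAR-3 is known for extra copies of the part of chromosome 19 that holds CCNE1. ATF4 is the transcription factor at the end of the integrated stress response: when kinases that sense amino acid shortage or unfolded proteins phosphorylate the translation factor eIF2, ATF4 is translated and switches on genes of amino acid synthesis, amino acid import and tRNA charging. OSMR is the receptor chain that pairs with gp130, the product of IL6ST, to bind the cytokine oncostatin M and to signal through JAK kinases and STAT factors. PLCB1 is a phospholipase C that G proteins of the Gq class activate, and its cleavage of a membrane lipid releases calcium and activates protein kinase C, a product of genes such as PRKCA.

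ATF4 and its partners bind an element whose core is TGATGNAA, here searched on both strands of the 250 bases before the start of each gene in RefSeq's promoters on GRCh38.p14. Of 27305 promoters 870 (3.19%) held it, and so did 4 of the 35 measured genes of the stress response list that had a promoter entry. The stretch of each that holds the element is printed because these 4 genes are read below beside ATF4 itself, with the element in capitals, written TTGCATCA where it lies on the other strand. ATF3 (chr1:212565157-212565283, plus strand) is a stress-induced transcription factor, ASNS (chr7:97872409-97872536, minus strand) makes asparagine, CHAC1 (chr15:40953221-40953329, plus strand) degrades glutathione and AARS1 (chr16:70289626-70289753, minus strand) charges the tRNA of alanine.
ATF3: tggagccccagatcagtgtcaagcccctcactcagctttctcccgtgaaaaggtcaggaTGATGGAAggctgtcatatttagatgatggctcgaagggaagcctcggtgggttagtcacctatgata
ASNS: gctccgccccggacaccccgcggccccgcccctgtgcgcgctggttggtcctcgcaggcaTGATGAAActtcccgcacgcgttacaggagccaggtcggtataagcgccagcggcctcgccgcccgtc
CHAC1: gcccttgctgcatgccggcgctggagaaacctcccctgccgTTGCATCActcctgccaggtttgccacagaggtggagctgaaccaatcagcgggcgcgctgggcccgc
AARS1: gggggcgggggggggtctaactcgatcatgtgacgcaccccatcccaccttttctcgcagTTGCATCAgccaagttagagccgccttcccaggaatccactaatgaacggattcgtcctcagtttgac

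Values are log2 signals, and a difference of 1 is a doubling. By limma with growth condition as a term, 271 of 18398 genes (1.47%) were called between R1 and the other sublines at an adjusted p under 0.05. R1 was higher in 192 (1.04% of all genes) and lower in 79 (0.429%). The calls stood close to the threshold, with adjusted p from 0.0188 to 0.04997, and 23 of them had a difference of at least 1, 18 higher and 5 lower. On 248 of the 271 genes both R1 arrays lay outside the range of the 8 others, while over all genes both lay above that range in 7.75% and below it in 10.6%. In these bulk samples more transcript per cell and more cells that hold the transcript cannot be told apart.

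The arrays themselves also differed. Olfactory receptor genes are silent in most tissues, so their mean over 337 genes was taken as a measure of background signal. It was 6.06 on the selected and 6.18 on the stable R1 array, 6.12 ± 0.087 (SD, n = 2), and 6.50 ± 0.160 (SD, n = 8) on the others, where it ran from 6.26 in selected R3 to 6.69 in stable R7. Both R1 arrays thus lay below all 8 others (difference -0.38, two-sided exact permutation p = 0.0222, the smallest that the 45 choices of 2 arrays allow). For the mean of the dimmest 5% of genes the difference was -0.07, so its size depended on the genes taken as background. Parental arrays reached from 6.16, in replicate 2, to 6.71. Along with the background the difference between R1 and the others followed signal level, from a median of -0.12 in the dimmest sixth of genes to 0.14 in the brightest, and from 0.0043 to -0.04 with that mean as a covariate. With this covariate no gene was called by limma (0 of 18398, 1370 at an unadjusted p under 0.05), all 271 genes kept their sign and 134 of them had an unadjusted p under 0.05. Since the 2 R1 arrays were the 2 with the lowest background among the 10 resistant arrays, background and subline cannot be told apart, and values with the covariate (called background-adjusted) are given below for every named gene whose difference moved by more than 1.5 times with it, and for others.

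**Figure D1:**
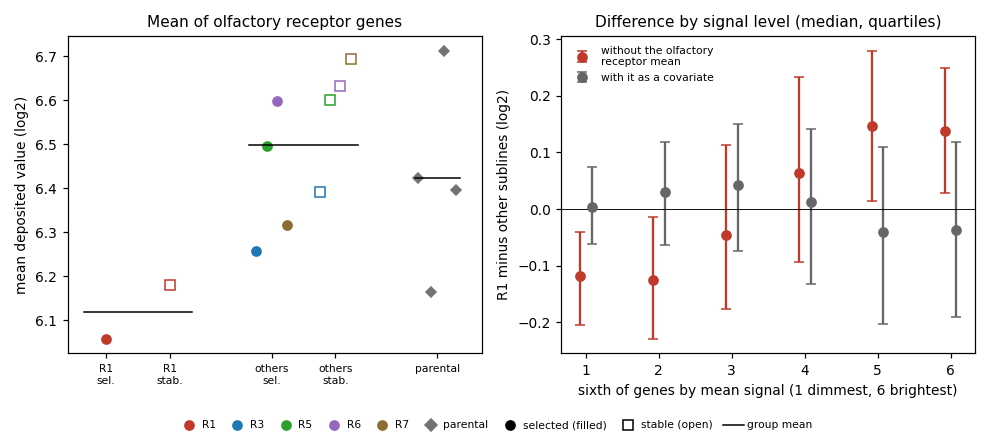
Left, mean log2 signal of 337 olfactory receptor genes on each array, with lines at the group means; both R1 arrays (6.06 and 6.18) lie below the 8 arrays of the other sublines, and parental replicate 2 (6.16) lies beside them. Right, median and quartiles of R1 minus the other sublines (log2) in 6 classes of genes by mean signal, which go from -0.12 in the dimmest to 0.14 in the brightest class without the olfactory receptor mean and stay between -0.04 and 0.04 with it.

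The calls also rested on few arrays. Without the selected array of R1, without either array of R5 or without the stable array of R7 no gene was called by limma (3257, 4173, 4470 and 4190 genes had an unadjusted p under 0.05), and without the stable array of R1 3 were. Without the stable array of R3, in contrast, 2350 genes were called, and without the selected array of R7 1276. Treating the 2 arrays of a subline as a random block gave 526 calls that held all 271, while averaging them to 1 value per subline gave 0 (4589 at an unadjusted p under 0.05). In the block fit the correlation between arrays of a subline was -0.031, so it made no allowance for their repetition. Adjusted p-values below are those of the first fit, and each stands under these limits.

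Which side lay farther from the parental mean differed from gene to gene. Of the 192 genes higher in R1 the mean of the other sublines lay nearer to the parental mean in 150 and that of R1 in 42. Relative to parental cells these genes had a median of 0.45 in R1 and -0.13 in the others. Among the 79 genes lower in R1 the others lay nearer in 78 and R1 in 1. The counts cannot tell which side moved, since the genes were picked by this difference and the R1 mean rests on 2 arrays against 8. The parental background mean (6.42) also lay nearer to that of the others (6.50) than to that of R1 (6.12). No share over all genes was counted beside them. Of those 79 genes, 24 were olfactory receptors and 18 lay above the 40th percentile of mean signal, against 139 of the 192 higher genes.

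**Figure D2:**
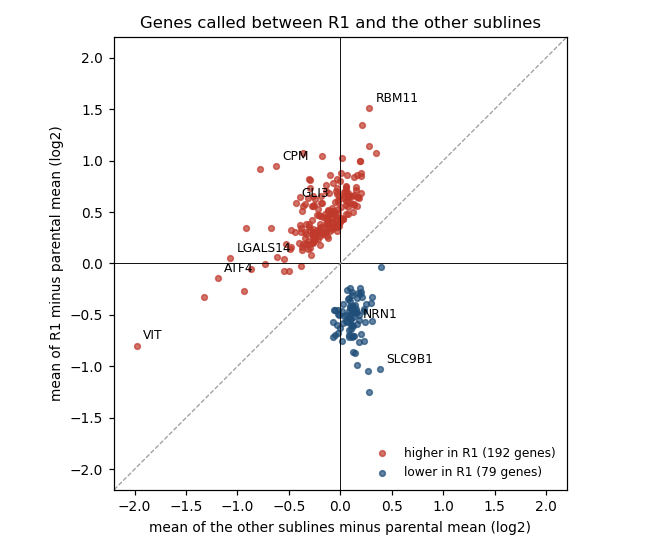
Each point is 1 of the 271 called genes, placed by the difference from the parental mean (log2) of the other sublines (horizontal) and of R1 (vertical); the dashed line marks equal differences. Most higher genes lie above 0 on the vertical axis and near 0 on the horizontal one, while ATF4, LGALS14 and VIT lie near or below 0 in R1 and far below it in the others.

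ATF4 belonged to the 42 higher genes in which the R1 mean lay nearer to the parental mean than that of the other sublines did. Its signal was 11.30 in selected and 10.81 in stable R1. The selected arrays of R3, R5, R6 and R7 gave 10.64, 9.93, 10.06 and 9.94, and the stable ones 10.16, 9.80, 9.81 and 9.74 in that order. Both R1 arrays lay above all 8, and R3 was the nearest of the 4 in either condition. Parental cells had 11.42, 11.29, 10.87 and 11.21, so the R1 mean differed from theirs by -0.14 and that of the others by -1.19. ATF4 was 2.06-fold higher in R1 than in the others (log2 difference 1.04, SE 0.17, adjusted p = 0.0366), by 1.16 in selected and 0.93 in stable cells. The background-adjusted difference was 0.56 (SE 0.23, adjusted p = 0.632), and the call was lost without either R1 array (adjusted p = 0.183 without the selected, 0.363 without the stable one), without either array of R5 (0.0795 and 0.0710) or R6 (0.0623 and 0.0542) and without the stable array of R7 (0.0839). ATF4 has 2 rows on the array, and over their mean the difference was 0.77 (adjusted p = 0.0377).

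The genes that ATF4 controls gave a list of 42 measured members of the integrated stress response, chosen for this comparison with ATF4 on it. ATF4 was its only called member, 1 of 42 higher (1.04% of all genes) and 0 lower, and 16 members had an unadjusted p under 0.05. Of the 42 members 37 (88.1%) lay above 0, with a median of 0.33 beside -0.0029 for all genes. Among all genes above the 40th percentile of mean signal 67.9% lay above 0, with a median of 0.10. Background-adjusted, the median was -0.11 and 16 members lay above 0. The mean signal of the list was 9.83 and 9.96 on the R1 arrays, 9.33 to 9.99 on the others and 9.57 to 9.68 on parental arrays, so the groups overlapped.

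PSAT1, an enzyme of serine synthesis, came closest to a call after ATF4. It gave 11.22 and 11.13 in R1, 9.89 to 10.84 in the others (median 10.51) and 10.58 to 10.66 in parental cells, with R1 above every other array, and differed by 0.77 (SE 0.17, adjusted p = 0.0513; background-adjusted 0.30). CHAC1 was at 9.10 and 9.59 in R1 against 8.31 to 9.19 (median 8.53), where stable R3 reached into the R1 values, and did not pass (0.75, SE 0.18, adjusted p = 0.0565; background-adjusted 0.27). ASNS differed by as much (0.75) with a wider spread (SE 0.26, adjusted p = 0.108; background-adjusted 0.24), since stable R3 stood at 10.26, between the R1 values of 9.87 and 10.60. The glutamine importer SLC1A5 gave 11.54 and 11.39 in R1 against 10.58 to 11.23 (0.54, adjusted p = 0.0684; background-adjusted 0.24). AARS1 differed by 0.32 (adjusted p = 0.0942; background-adjusted 0.08) and ATF3 by -0.02 (adjusted p = 0.920; background-adjusted -0.18), so the 4 genes whose printed promoters hold the element spanned values from ATF3, at 7.68 and 7.39 in R1 within the 7.25 to 7.84 of the others, to ASNS and CHAC1.

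Between R1 and the other sublines, the measured genes on either side of ATF4 on chromosome 22 did not share its difference as a group. Over the 10 on each side the median was 0.10 (-0.03 with the covariate), with 13 of 20 above 0 and 1 called (1.04% of all genes called higher). That gene was MIEF1, a mitochondrial fission receptor, at 9.28 and 8.93 in R1 and 7.85 to 8.85 in the others (0.77, SE 0.16, adjusted p = 0.0480; background-adjusted 0.23), against 8.51 to 8.91 in parental cells. Relative to the parental mean the 20 genes had medians of -0.18 in selected and -0.16 in stable R1 and of -0.46 to -0.13 in the others. Parental arrays had -0.04 to 0.05, so all resistant arrays lay below them, with R1 inside the range of the others.

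OSMR went the other way and did not pass. R1 had 7.10 in selected and 6.55 in stable cells. The others had 9.21, 8.92, 7.74 and 8.51 in selected R3, R5, R6 and R7 and 9.52, 8.97, 7.45 and 8.07 in the stable arrays. All 8 lay above both R1 arrays, with R6 the nearest, and they spread widely among themselves. Parental cells had 7.66, 7.29, 7.41 and 6.96, so R1 overlapped with parental cells (mean difference -0.51) and the others lay 1.22 above them on average. The difference between R1 and the others was -1.72 (SE 0.47, adjusted p = 0.0698), a 3.31-fold lower signal with a 95% interval from -2.76 to -0.69. It passed without the stable array of R3 (-1.55, adjusted p = 0.0322), and the background-adjusted difference was -3.21 (adjusted p = 0.491).

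Other chains of the receptor family did not accompany OSMR. IL6ST, the shared gp130 chain, was at 10.22 and 10.42 in R1, inside the range of the others from 9.35 to 11.24 (0.32, adjusted p = 0.636), and LIFR, which can replace OSMR beside gp130, at 7.95 and 8.04, inside 7.33 to 8.37 (0.17, adjusted p = 0.624). The signs of both turned with the covariate (-1.35 and -0.69). PIAS3, an inhibitor of STAT3, was above all others in both R1 arrays, at 9.15 and 9.43 against 8.53 to 9.06, without a call (0.41, adjusted p = 0.0902). Of 32 measured genes of OSMR and gp130 signalling 0 were called by limma and 8 had an unadjusted p under 0.05; 16 lay above 0, with a median of -0.0033 (11 and -0.11 with the covariate). The 20 neighbours of OSMR on chromosome 5 had a median of 0.10, with 11 above 0 (-0.18 and 2 with the covariate).

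PLCB1 rose in R1 relative to the others. It stood at 9.81 in selected and 9.42 in stable R1. In the others it was 8.97, 8.73, 9.34 and 9.23 in selected R3, R5, R6 and R7 and 8.39, 8.14, 8.81 and 8.58 in their stable arrays, all below both R1 values. Parental cells were uniform, at 8.87, 8.95, 8.91 and 8.91, below R1 and inside the range of the others. The difference was 0.84 (1.79-fold, SE 0.18, adjusted p = 0.0484; background-adjusted 1.01), 0.74 in selected and 0.94 in stable cells. The adjusted p ranged from 0.00483 to 0.504 over 30 alternatives and passed in 8 of them, and the call was lost without either R1 array (adjusted p = 0.183 and 0.472), without either array of R5 (0.0899 and 0.0810) or R6 (0.0665 and 0.0581), without selected R3 (0.0522) and without stable R7 (0.0875).

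Downstream of the Gq class, PRKCA, the gene of protein kinase C alpha, also rose. Its signal was 8.80 and 8.77 in R1 and 8.02 to 8.43 in the others (median 8.29), without overlap, and 8.12 to 8.69 in parental cells. It was 0.52 higher (SE 0.10, adjusted p = 0.0479; background-adjusted 0.38). GNAQ, the Gq alpha subunit itself, was at 10.15 and 10.21 against 9.54 to 9.96 and did not pass (0.42, SE 0.10, adjusted p = 0.0591). PLCB4, a relative of PLCB1, had the opposite sign, at 7.98 and 8.001 in R1, 8.14 to 9.57 in the others and 8.02 to 8.30 in parental cells (-0.85, SE 0.27, adjusted p = 0.0895; background-adjusted -1.53). PLCB1 and PRKCA were the 2 called members of 39 measured genes of phospholipase C and Gq signalling, a list built around PLCB1, with 2 higher (beside 1.04% of all genes) and 0 lower. Of the 39 members 10 had an unadjusted p under 0.05, 21 lay above 0 and the median was 0.0053. The 20 neighbours of PLCB1 on chromosome 20 had a median of -0.0088, with 9 above 0.

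**Figure D3:**
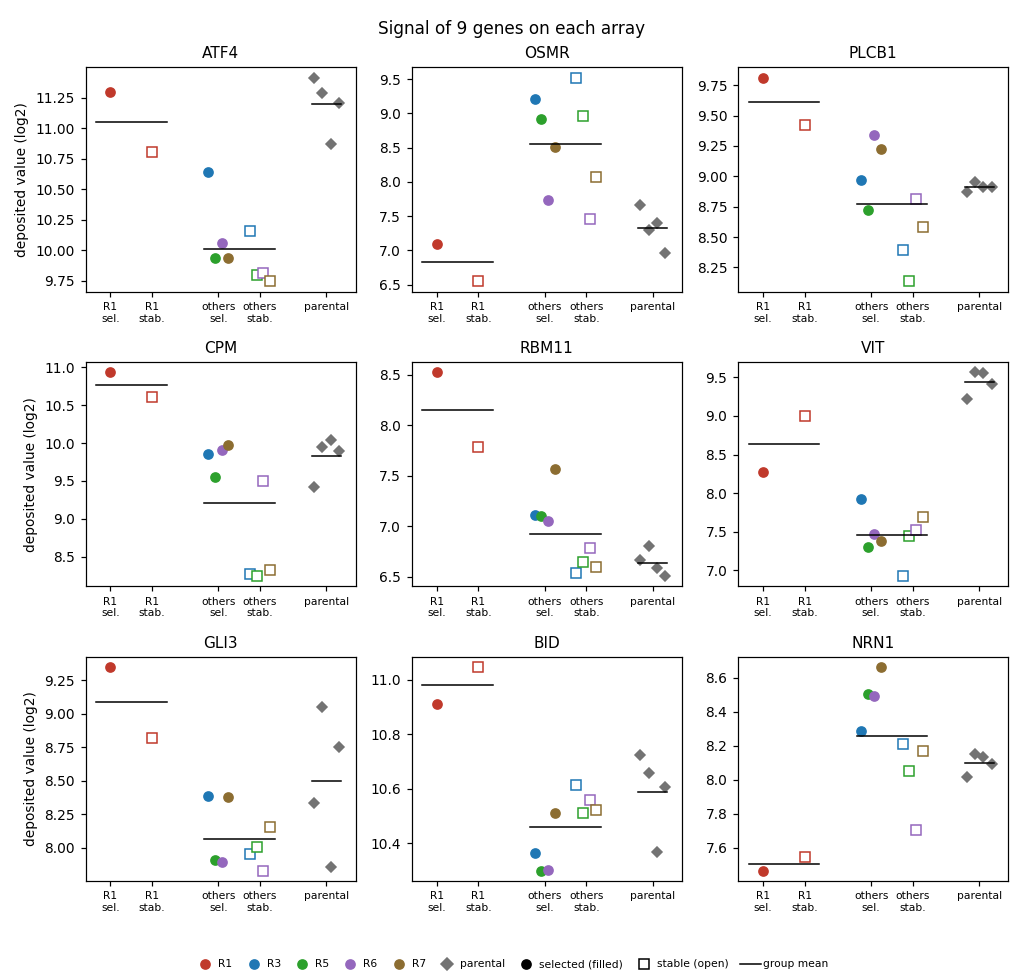
Log2 signal of 9 genes on every array, with R1, the other sublines and parental cells from left to right, filled symbols for selected and open ones for stable arrays, and lines at the group means. ATF4 and VIT lie at or toward parental levels in R1 and lower in the others, OSMR and NRN1 are lowest in R1, and CPM, RBM11, PLCB1, GLI3 and BID are highest in R1.

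The largest rises of protein-coding genes included enzymes and proteins of the cell surface and matrix. CPM, a membrane carboxypeptidase, was 10.94 and 10.61 in R1, against 9.55 to 9.97 in the other selected arrays and 8.24 to 9.50 in the stable ones, and 9.42 to 10.04 in parental cells. It was 2.97-fold higher than in the others (1.57, SE 0.30, adjusted p = 0.0479; background-adjusted 1.66). RBM11, a splicing regulator, was 8.52 and 7.78 in R1, 6.54 to 7.57 in the others and 6.51 to 6.80 in parental cells. Its difference of 1.23 (SE 0.13) had the smallest adjusted p of all genes, 0.0188, was 1.13 with the covariate and kept its call in 17 of 28 alternatives. CYP24A1, which inactivates vitamin D, was 7.89 and 7.10 in R1, 6.06 to 6.88 in the others and 6.48 to 6.88 in parental cells (1.11, adjusted p = 0.0296). PI15, a protease inhibitor of the secreted CAP family, differed by 1.44 (adjusted p = 0.0396), with 9.32 in selected R1 but 7.496 in stable R1, next to others that reached 7.47.

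Among the called genes, chosen after their values were seen, were some that build or modify extracellular matrix, while the list of collagens and laminins had 0 of 29 genes called by limma (9 at an unadjusted p under 0.05), 9 above 0 and a median of -0.08 (-0.03 with the covariate). Those named next were higher in R1, while HAS2, the hyaluronan synthase gene named again below, was called lower (-0.71, background-adjusted -0.35). VCAN, the large proteoglycan versican, was 11.45 and 11.12 in R1, 9.52 to 10.89 in the others and 10.48 to 10.69 in parental cells (1.02, SE 0.17, adjusted p = 0.0366). LOX, which crosslinks collagen and elastin, was 8.81 and 8.51 against 6.66 to 8.48, so that selected R3 nearly reached stable R1 (1.13, SE 0.22, adjusted p = 0.0479; background-adjusted 0.60). EFEMP1, a fibulin, was 8.15 and 7.39 in R1 and 6.34 to 7.18 in the others (1.001, adjusted p = 0.0296). For EFEMP1 parental cells had 7.92 to 8.24, above every resistant array but selected R1. VIT, another matrix protein, showed the same order more strongly, with parental cells at 9.22 to 9.57, R1 at 8.28 and 8.999 and the others at 6.93 to 7.93 (1.18, SE 0.23, adjusted p = 0.0479).

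LGALS14, a galectin of placenta, was 10.73 and 11.13 in R1, 9.35 to 10.50 in the others and 10.68 to 11.04 in parental cells, so that R1 overlapped with parental cells and not with the sublines (1.13, SE 0.23, adjusted p = 0.0479). GLI3, a transcription factor of Hedgehog signalling, was 9.35 and 8.82 in R1 and 7.83 to 8.39 in the others (1.02, SE 0.15, adjusted p = 0.0296; background-adjusted 0.72), but parental cells spread from 7.86 to 9.05, with the highest value in replicate 2, the parental array of lowest background. PSD3, an exchange factor for ARF GTPases, differed by 1.04 (adjusted p = 0.0452) with an overlap, since selected R7 had 9.49 and stable R1 9.32.

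Falls were mostly of dim genes, and among the resistant arrays the background mean was lowest on those of R1. SLC9B1, a sodium and proton exchanger of sperm, was 5.26 and 6.02 in R1 and 6.11 to 7.59 in the others (-1.42, SE 0.24, adjusted p = 0.0366), which became -0.55 with the covariate, and parental replicate 2, the parental array of lowest background, had 5.86. GDPD4, a phosphodiesterase family member, was 6.66 and 7.25 against 7.496 to 8.65 (-1.16, adjusted p = 0.0366; background-adjusted -0.47), with 7.33 in parental replicate 2. TMEM212 (-0.89), the germ cell gene DPPA3 (-0.82), the itch receptor relative MRGPRX3 (-0.79), the chemokine scavenger ACKR4 (-0.73), WFDC6 (-0.68) and HMHB1 (-0.66) were called as well, and their differences lay between -0.13 and -0.26 with the covariate. TAS2R4 and NRN1 kept more of their difference with it. TAS2R4, a bitter taste receptor, was at 5.82 and 6.59 in R1 and 6.67 to 7.53 in the others (-0.83, adjusted p = 0.0296; background-adjusted -0.61). NRN1, neuritin, a membrane-anchored neuronal growth factor, was 7.47 and 7.54 in R1, 7.70 to 8.66 in the others and 8.01 to 8.15 in parental cells. It was 1.69-fold lower in R1 (-0.75, SE 0.15, adjusted p = 0.0479; background-adjusted -0.83). HAS2, which makes hyaluronan, and SIDT1, a nucleic acid transporter, fell at -0.71 and -0.64 (background-adjusted -0.35 and -0.33).

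Of the genes next to the inhibitor's target, CCNE1 and CDK2 did not differ by a called amount. CCNE1 was 11.61 and 11.16 in R1 and 10.70 to 11.61 in the others (0.23, 95% interval -0.08 to 0.55, adjusted p = 0.302), and CDK2 10.31 and 10.22 against 9.84 to 10.28 (0.21, 95% interval -0.06 to 0.47, adjusted p = 0.277; background-adjusted 0.11). CCNE2 gave 10.52 and 9.75 against 8.82 to 10.25 (0.63, adjusted p = 0.0939; background-adjusted 0.10). On a list of 21 regulators and partners of CDK2, 0 were called by limma, 5 had an unadjusted p under 0.05 and 18 lay above 0, with a median of 0.21. All genes above the 40th percentile of mean signal had 67.9% above 0 and a median of 0.10. With the covariate 11 of the 21 lay above 0 and their median was 0.02. E2F5, a repressing E2F factor, was the 1 called gene of 16 on the list of D cyclins, CDK4, CDK6 and the RB family (1.04% of all genes called higher). It was 9.38 and 9.98 in R1, 8.45 to 9.15 in the others and 8.98 to 9.40 in parental cells (0.92, SE 0.19, adjusted p = 0.0479; background-adjusted 0.50). CDK6 was at 10.62 and 10.65 in R1, above the 9.75 to 10.37 of the others and within the 10.53 to 11.10 of parental cells (0.46, adjusted p = 0.0599; background-adjusted 0.23). RB1, the pocket protein that CDK2 and CDK6 phosphorylate, differed by 0.51 (adjusted p = 0.0673) and the CDK-activating kinase gene CDK7 by 0.39 (adjusted p = 0.0765; background-adjusted 0.12).

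Replication and mitosis genes had 1 call between them. Of 37 DNA replication genes 0 were called by limma and 7 had an unadjusted p under 0.05. Of these genes 35 lay above 0 with a median of 0.18, beside 67.9% of all genes above the 40th percentile of mean signal, and with the covariate 24 did with a median of 0.04. MCM6, a subunit of the replicative helicase, was highest in R1, at 9.21 and 9.30 against 8.54 to 9.06 (0.56, adjusted p = 0.0507; background-adjusted 0.52). Of 35 mitosis genes 32 lay above 0 (median 0.16), 19 with the covariate (median 0.04), and 1 was called, beside 1.04% of all genes called higher. This was ANLN, the actin-binding protein of the cleavage furrow, at 11.87 and 11.67 against 11.12 to 11.50 (0.52, SE 0.10, adjusted p = 0.0479; background-adjusted 0.34). NDC80, of the kinetochore, had no overlap either, at 10.14 and 10.16 against 9.50 to 9.88, and did not pass (0.42, adjusted p = 0.0522).

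BID, a pro-apoptotic member of the BCL2 family, had one of the narrowest spreads. It gave 10.91 and 11.05 in R1 and 10.30 to 10.62 in the others, with 10.37 to 10.72 in parental cells, and rose by 0.52 (SE 0.08, adjusted p = 0.0296; background-adjusted 0.38). It was the 1 called gene of 17 on its list, beside 1.04% of all genes called higher. On that list 9 lay above 0 and the median was 0.012 (0.10 with the covariate). BAK1, which forms pores in the outer mitochondrial membrane, was at 9.87 and 9.73 against 8.88 to 9.69 (0.59, adjusted p = 0.0512; background-adjusted 0.15).

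Among 26 genes of NRF2 and xenobiotic metabolism 1 was called higher, beside 1.04% of all genes. This was ME1, malic enzyme, a source of NADPH. It stood at 10.92 and 10.46 in R1, 9.70 to 10.29 in the others and 9.74 to 10.18 in parental cells (0.77, SE 0.16, adjusted p = 0.0479; background-adjusted 0.44). GCLC, the rate-limiting enzyme of glutathione synthesis, was 0.54 higher without a call (adjusted p = 0.0719; background-adjusted 0.14). The WNT list likewise had 1 gene of 26 called higher, beside the same 1.04%. ZNRF3, which removes Frizzled receptors from the membrane, was 9.81 and 9.58 in R1, 9.18 to 9.47 in the others and 9.11 to 9.53 in parental cells (0.42, SE 0.08, adjusted p = 0.0479; background-adjusted 0.29). TCF7L1, a repressing factor of WNT target genes, and APC, part of the beta-catenin destruction complex, differed by 0.43 and 0.61 (adjusted p = 0.0548 and 0.0564; background-adjusted 0.25 and 0.40).

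Cholesterol synthesis and uptake had the highest median of the 31 lists, 0.36 over 18 measured genes. Of these 17 lay above 0, beside 67.9% of all genes above the 40th percentile of mean signal. In 6 both R1 arrays lay above all others, beside 7.75% of all genes. No member was called by limma (0 of 18, 8 at an unadjusted p under 0.05). With the covariate the median was -0.04 and 8 lay above 0. IDI1, an isomerase of the pathway, was 10.55 and 10.42 against 9.43 to 10.29 (0.61, adjusted p = 0.0736; background-adjusted 0.20). Interferon response genes had a median of -0.15 with 8 of 28 above 0 and 0 called by limma (3 at an unadjusted p under 0.05), and with the covariate the median was -0.35 with 4 above 0. OAS3, a sensor of double-stranded RNA, was 7.36 and 6.96 against 7.42 to 8.12 (-0.53, adjusted p = 0.0986), while IFITM3, which blocks virus entry, was on the other side at 10.72 and 10.93 against 9.95 to 10.67 (0.57, adjusted p = 0.0768; background-adjusted 0.32). All 10 antigen presentation genes lay below 0 with 0 called and 3 at an unadjusted p under 0.05, and B2M, the light chain of class I molecules, was 9.72 and 9.75 in R1, 9.91 to 10.32 in the others and 9.58 to 9.99 in parental cells (-0.37, adjusted p = 0.0942). In the serous ovarian lineage WFDC2, the gene of the tumour marker HE4, differed by 0.82 (adjusted p = 0.0836) and MSLN, mesothelin, by -0.66 (adjusted p = 0.125; background-adjusted -1.15), with 0 of 18 genes called and 3 at an unadjusted p under 0.05.

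Over the 31 lists together 9 of 662 measured genes (1.36%) were called higher and 0 lower, a share close to the 1.04% of all genes. Markers of cell types other than carcinoma gave 0 calls by limma, with 2 leukocyte, 3 fibroblast, 4 endothelial and 1 mesothelial gene at an unadjusted p under 0.05. Their mean signal on R1 arrays against the other sublines was 6.66 to 6.71 against 6.72 to 6.94 for 12 leukocyte genes, 6.55 to 6.57 against 6.54 to 6.78 for 10 fibroblast genes, 6.83 to 6.85 against 6.83 to 7.04 for 9 endothelial genes and 7.399 to 7.47 against 7.47 to 7.71 for 7 mesothelial genes. These values lay below the bulk of genes (array medians 7.99 to 8.10), and the list medians of -0.04 to -0.15 came to between -0.02 and 0.02 with the covariate.

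**Figure D4:**
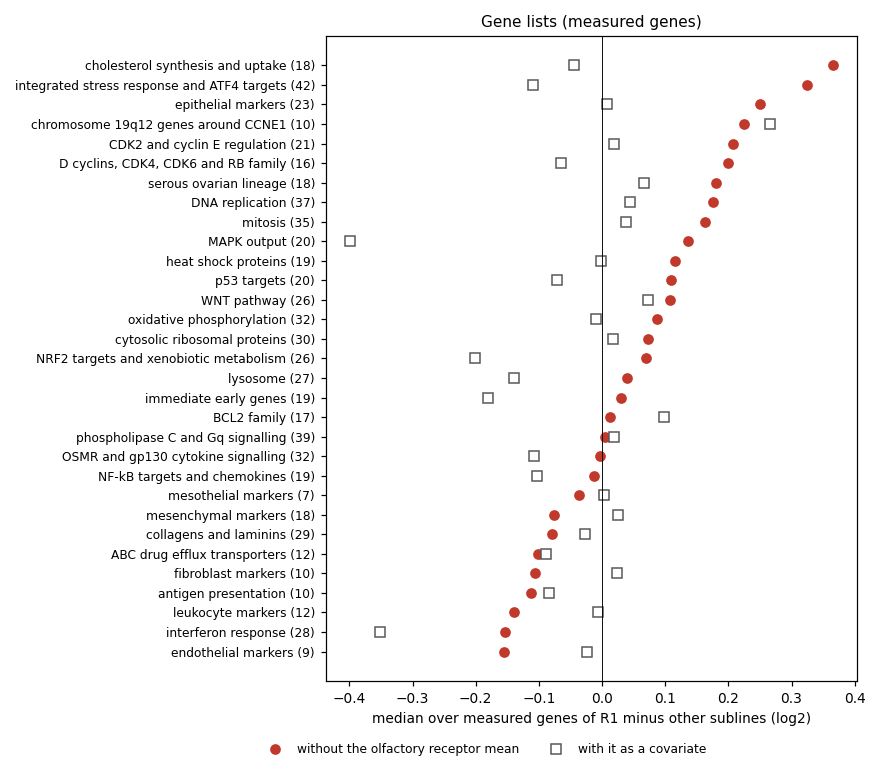
Median over the measured genes (number in brackets) of 31 lists of R1 minus the other sublines on the log2 scale, without (filled circles) and with (open squares) the covariate for background. Cholesterol (0.36) and stress response genes (0.33) lie highest without it and fall to -0.04 and -0.11 with it, while the 19q12 list goes from 0.23 to 0.27.

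Genes were also read in chromosome order, where some neighbours differed together, as a description without a test. Over 18033 windows of 15 consecutive measured genes the median difference had a median of 0.0042, with percentiles 1 and 99 at -0.28 and 0.30. The 4 highest windows that did not overlap lay on chromosome 7, from SOSTDC1 to MACC1 (0.53), chromosome 5, from LIX1 to EFNA5 (0.49), chromosome 13, from UCHL3 to SPRY2 (0.49), and chromosome 19, from ZNF566 to ZNF875 (0.46), and with the covariate they had 0.19, 0.28, 0.35 and 0.18. Relative to the parental mean, the chromosome 7 window had medians of 0.57 in selected and -0.02 in stable R1, against -0.17 to 0.13 in the others. On chromosomes 13 and 19 stable R1 (0.055 and 0.15) also lay inside the range of the others. On chromosome 5 both R1 arrays (0.29 and 0.25) lay above that range. By whole chromosome the share of genes called higher ran up to 4.11% on chromosome 13 (13 of 316), 2.43% on chromosome 5 (19 of 781), 2.28% on chromosome 7 (19 of 832) and 1.99% on chromosome 19 (26 of 1308), beside 1.04% of all genes. The 4 lowest windows held 9 to 15 olfactory receptor genes each (-0.50 to -0.54) and lay between -0.08 and 0.10 with the covariate. The covariate is the mean of such genes, so this change was built in.

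On chromosome 19 neighbours that shared a difference lay around CCNE1 and beyond it. The stretch from CCNE1 to FBL was delimited after the values were seen, so its counts are a description. Of its 177 measured genes 16 were called higher and 0 lower, and 116 lay above 0 (median 0.16, and 0.24 with the covariate). Over all genes 1.04% were called higher and 49.5% lay above 0. Of the 121 above the 40th percentile of mean signal 97 (80.2%) lay above 0, with a median of 0.26, beside 67.9% and 0.10 for all genes above that percentile. Relative to the parental mean these 121 genes had medians of 0.04 and -0.0035 on the R1 arrays and -0.30 to -0.08 on the others. The parental arrays themselves had -0.09 to 0.06, so both R1 arrays lay within the parental range, and the highest of the others, stable R6, overlapped with parental replicate 3.

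Called genes along this run were SARS2, the mitochondrial seryl-tRNA synthetase, at 10.49 and 10.39 in R1 against 9.53 to 9.82 (0.74, SE 0.09, adjusted p = 0.0246), and NFKBIB, an inhibitor of NF-kB, at 10.93 and 10.58 against 9.72 to 10.10 (0.83, SE 0.12, adjusted p = 0.0296). YIF1B, of transport from the endoplasmic reticulum, rose by 0.60 and LSR, a protein of tricellular junctions, by 0.53, with SE 0.09 and 0.08 and adjusted p = 0.0296 for both. UPK1A, a urothelial membrane protein, rose by 0.59 (adjusted p = 0.0296) and the zinc finger gene ZNF507 by 0.53 (adjusted p = 0.0366). For none of these 6 genes did the R1 values overlap with the others, and with the covariate the differences were 0.36 to 0.90. Just before CCNE1, and outside these limits, lie C19orf12 and POP4. C19orf12, a mitochondrial membrane protein gene, was 9.36 and 9.17 in R1, 8.52 to 9.09 in the others and 9.01 to 9.15 in parental cells (0.53, SE 0.11, adjusted p = 0.0479). URI1, a prefoldin-like protein, had 12.65 and 12.61 in R1, 12.15 to 12.39 in the others and 12.56 to 12.74 in parental cells (0.35, adjusted p = 0.0619), and POP4, of ribonuclease P, 12.10 and 11.99 against 11.30 to 11.78 and parental values of 11.84 to 12.03 (0.41, adjusted p = 0.0724). For CCNE1 itself, at 11.61 and 11.16, R1 overlapped with the other sublines and lay above all 4 parental arrays, which reached 11.13.

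On chromosome 7 the shared difference was of R1 above parental cells. From ANKMY2 to GLI3, limits again set after the values were seen, 12 of 118 measured genes were called higher and 0 lower, and 77 lay above 0 (median 0.21, and 0.13 with the covariate). The shares over all genes were 1.04% called higher and 49.5% above 0. The 72 above the 40th percentile of mean signal had medians relative to parental cells of 0.50 and 0.32 on the R1 arrays and of -0.14 to 0.28 on the others. Parental replicate 2 reached 0.13. All genes above that percentile had medians of 0.10 and 0.07 on the R1 arrays and of -0.06 to 0.07 on the others. Besides GLI3 and ANLN the called genes included AHR, the receptor of dioxin and other aryl hydrocarbons, at 10.12 and 9.88 in R1, 8.90 to 9.74 in the others and 8.71 to 9.17 in parental cells (0.73, SE 0.15, adjusted p = 0.0479; background-adjusted 0.26). TSPAN13, a tetraspanin, was 9.76 and 9.45 against 8.75 to 9.31 (0.64, SE 0.11, adjusted p = 0.0389; background-adjusted 0.66), and JAZF1, a zinc finger protein, 9.21 and 8.70 against 8.06 to 8.67 (0.59, SE 0.11, adjusted p = 0.0452; background-adjusted 0.57).

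**Figure D5:**
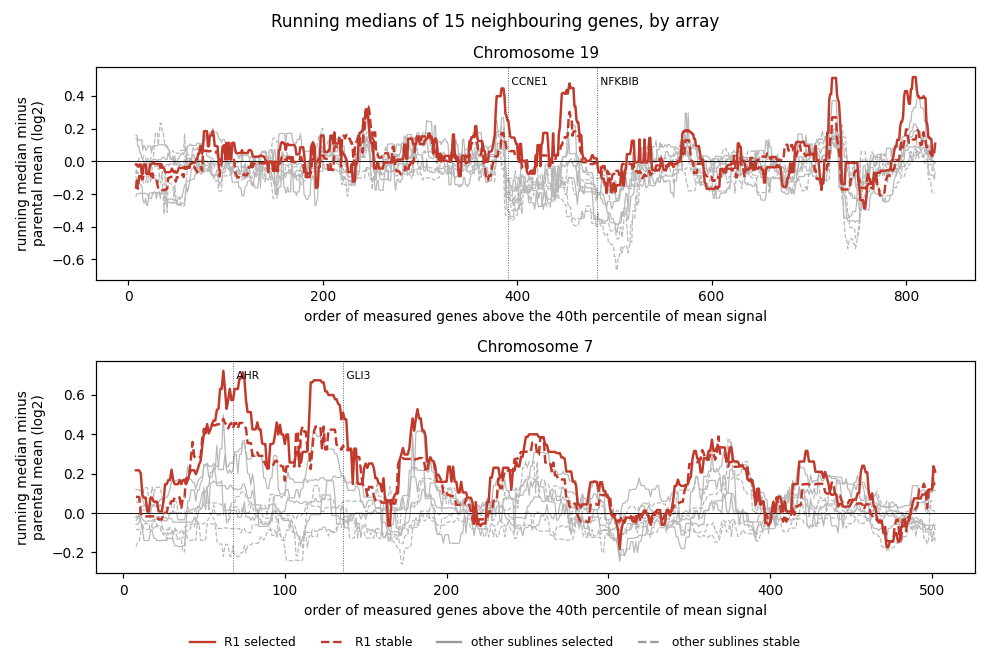
Running medians over 15 neighbouring genes (log2 signal minus the parental mean) along chromosomes 19 and 7, in gene order among genes above the 40th percentile of mean signal, for each of the 10 resistant arrays. Between CCNE1 and NFKBIB most curves of the other sublines lie below 0 while both R1 curves lie mostly at or above it, and from AHR to GLI3 both R1 arrays lie above the others.

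Whether R1 differed from the others to the same extent in the inhibitor and after its withdrawal was asked with the interaction of subline and growth condition, which assumes that the single R1 array of each condition varies like the 8 others. No gene was called by limma (0 of 18398 or 0%, 434 at an unadjusted p under 0.05). FOS, an immediate early gene, had one of the smallest p-values. In selected cells R1 had 10.05, just below the 10.14 to 10.92 of the others, while in stable cells it had 9.46 against 8.01 to 8.20, with parental cells at 10.44 to 11.31. The difference between R1 and the others was thus -0.34 in selected and 1.34 in stable cells (0.50 over both, background-adjusted 0.84; interaction -1.68, SE 0.35, adjusted p = 0.99995), which did not pass.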

How the data were processed

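Biotin-labelled RNA of 14 samples was read on Affymetrix whole-transcript arrays, per the labels' protocols. The authors deposited 1 value per array row, used here as log2 signal; base 2 was inferred because values run from 4.34 to 14.9, and how they were background-corrected, normalized and summarised is not given in the sources used here. Of 32295 rows 19148 have 1 gene in the platform annotation, 1376 several and 11771 none here; symbols of 19118 rows were updated through RefSeq (GRCh38.p14), and the brightest row was kept for the 633 genes with several, which left 18398 genes.

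R1 against the other sublines was tested over 10 arrays with limma 3.58.1 in R 4.3.3 (lmFit, eBayes, two-sided, growth condition as a term), and p-values were adjusted over all genes by Benjamini-Hochberg, with calls at 0.05. No dim genes were left out. The members, lists and rules were chosen with earlier results of these data known. Named are ATF4, OSMR, PLCB1, CCNE1, CDK2, and of called genes the 12 that rose most and the 12 that fell most (without small RNAs, olfactory receptors and uncharacterised loci), at most 4 genes per list (those with the smallest p), and genes of described chromosome windows; those printed were picked from these after their values were seen.

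Selected and stable arrays of a number are the same subline, so numbers pair them by the labels. Deviations from the mean of the 5 sublines correlated across genes at 0.64 in R1 and, for R3, R5, R6 and R7, at 0.050, 0.37, 0.55 and -0.47. Subline was therefore also fitted as a random block (consensus correlation -0.031), in which R1 stays estimable. Other alternatives were subline means, no condition term, the olfactory receptor mean as a covariate, quantile and median scaling, a dim-gene filter, other treatment of rows, trended variance, array weights, all 14 arrays and leaving arrays out. Figures were drawn with matplotlib 3.10.9.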

Additional observations from a re-analysis of the deposited data

Results flagged for a closer look

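In the groups of 4 arrays, for the genes named above, 12 of 225 checks found 1 array far from the 3 others (a gap over Dixon's 95% critical value), where chance flags about 1 in 20. Stable R3 stood above the other stable arrays for ATF4 (10.16 against 9.74 to 9.81), AARS1 (10.19 against 9.92 to 9.93) and BAK1 (9.16 against 8.88 to 8.89). Stable R6 did so for CPM (9.50 against 8.24 to 8.33). Among the other selected arrays R7 was high for RBM11 (7.57 against 7.05 to 7.11), AARS1 (9.97 against 9.66 to 9.71) and AHR (9.74 against 9.31 to 9.38). Selected R6 was high for SIDT1 (7.42 against 7.11 to 7.14) and low for PLCB4 (8.52 against 8.83 to 8.89). In parental cells replicate 4 was low for PSAT1 (10.58), replicate 2 high for URI1 (12.74) and replicate 1 high for MSLN (10.39). The R1 arrays, 1 per condition, cannot be checked in this way.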

How the results depend on the processing

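The 271 calls depended on most settings. With subline as a random replicate block 526 genes were called, with trended and robust variance 767 and with array weights 6670, and all 271 were among them each time. The correlation in the block fit was -0.031, so the 526 calls make no allowance for repeated arrays of a subline. Quantile normalization left 3, centring arrays on their medians 42 and cyclic loess, chosen after seeing the data, 54; 23 had a difference of at least 1. By limma 0 were called from subline means (4589 at an unadjusted p under 0.05), without the condition term (4282), with the olfactory receptor mean (1370; 959 among bright genes only, a setting chosen after seeing the data) and among genes above the 40th percentile of mean signal (2643). Selected arrays alone gave 3 and stable ones 0 (3257 at an unadjusted p under 0.05). Leaving out 1 array gave 0 to 2350, and leaving out both arrays of R3, R5, R6 or R7 gave 2592, 0, 11 and 1. With the mean of a gene's rows 219 were called, with all rows one by one 227 and with all 14 arrays 379, of which 212 were among the 271.

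Of the 75 genes of the report followed through the alternatives, none of the 42 called changed sign in those run (the small RNAs below were not followed). Among those not called, the sign turned for IL6ST (-1.35) and LIFR (-0.69) with the olfactory receptor mean, with all genes and with bright genes alone. It also turned in selected arrays alone, which is the same as without stable R1, for LIFR (-0.073), FOS (-0.34) and ATF3 (0.084). Leaving out 1 array gave -0.073 to 0.41, -0.34 to 1.34 and -0.13 to 0.084 for these genes. ATF3 further had 0.020 with quantile normalization, 0.0052 with array weights, 0.033 without stable R3, 0.021 without both R3 arrays and 0.044 with cyclic loess. The causes were not tested. The interaction gave 0 calls by limma in all settings run, with 312 to 765 genes at an unadjusted p under 0.05, and the olfactory receptor mean of R1 stayed below that of the others by 0.35 to 0.41 when 1 other array was left out. R1 is 1 subline on 2 arrays, and this small number bounds how precise any value can be.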

Other observations

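Small nucleolar and Cajal body RNAs, which guide the chemical modification of ribosomal and spliceosomal RNA, were not on any list and were looked at after their values were seen. Of 192 measured 17 (8.85%) were called higher in R1 and 0 lower, beside 1.02% of protein-coding genes called higher. Their median difference was 0.20, with 140 above 0, and 0.09 background-adjusted, with 131 above 0. Their mean signal was 7.71 in selected and 7.79 in stable R1, 7.37 to 7.62 on the arrays of the other sublines and 7.50 to 7.76 in parental cells, so R1 lay above every other subline and the groups of R1 and parental cells overlapped. SNORD20 had the largest difference of all called genes, at 6.91 in R1 and 5.22 in the others on average (1.70, SE 0.20, adjusted p = 0.0246), with a parental mean of 5.99. SNORA75 (1.26, SE 0.27) and SNORD82 (0.90, SE 0.14) were called too, and all 3 lie in introns of NCL, the nucleolin gene, so they are not independent of each other.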
